A study of Mus musculus with 2 samples.

Results

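The 10 genes described here carry ions, bicarbonate and water across the colonic epithelium. They were taken by name, all 10 of 31054 features in the normal and of 32285 in the wounded library, and they were followed over the cluster names deposited with the filtered cells, 4 in the normal and 6 in the wounded library. The name Rectum covers 63 of 939 normal and 397 of 4147 wounded cells, and the comparison between conditions is between these cells. Both libraries came from the anorectal junction of C57/BL6J mice carrying K17CreERT2 and the R26R-GFP reporter, in which the Krt17 promoter drives a Cre active after tamoxifen. The mice, of both sexes, received tamoxifen for 2 days, and at least 5 were pooled. The normal tissue had no wound. The wounded tissue was taken 1 week after a wound with hot EDTA and then an electric brush, which removes rectal crypts beside the transition zone. Mice in the wound experiments were 2 to 4 months old. They also received isoflurane anesthesia and METACAM, and tamoxifen came before their wound, so they were taken later after it. The libraries differ as well in their feature list and in the Cell Ranger version recorded. Each of these goes with the condition and cannot be told apart from the wound. Live cells were sorted for Epcam and against surface markers of leukocytes, endothelium and fibroblasts before droplet capture. Each condition was 1 library, so differences between conditions cannot be held against a spread between replicates and carry no p-value. Intervals in brackets are at 95%, exact Poisson for levels, exact binomial for log2 ratios of 2 levels and Clopper-Pearson for shares, and cover counting error only.

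The large intestine takes up salt and water and secretes bicarbonate and chloride. Surface colonocytes exchange luminal chloride for bicarbonate, which carbonic anhydrases supply, and take up sodium through the epithelial sodium channel under the control of aldosterone. Crypt cells secrete chloride through CFTR, and potassium leaving through a basolateral channel of KCNQ1 and KCNE3 keeps the driving force for that secretion.

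By role the genes fall into 3 sets. The absorptive set holds Car1 (ENSMUSG00000027556, GRCm38 chr3:14766216-14808368), a cytosolic carbonic anhydrase, Car4 (ENSMUSG00000000805, chr11:84957786-84966044), a carbonic anhydrase anchored at the cell surface, Slc26a3 (ENSMUSG00000001225, chr12:31390871-31473917), the apical exchanger of chloride for bicarbonate, and Aqp8 (ENSMUSG00000030762, chr7:123462291-123468004), a water channel. The sodium channel set holds the alpha, beta and gamma subunits Scnn1a (ENSMUSG00000030340, chr6:125320659-125344943), Scnn1b (ENSMUSG00000030873, chr7:121865038-121918514) and Scnn1g (ENSMUSG00000000216, chr7:121734479-121768475). The chloride secretion set holds Kcnq1 (ENSMUSG00000009545, chr7:143106362-143427042), the pore of the basolateral potassium channel, Kcne3 (ENSMUSG00000035165, chr7:100176502-100184869), its accessory subunit, and Cftr (ENSMUSG00000041301, chr6:18170687-18322768), the apical chloride and bicarbonate channel. Kcnq1 overlaps an antisense transcript, and whether counting used strand is not given in the sources used here.

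The bases before the transcription start are shown for the 3 absorptive genes with an entry and for Cftr, to set the absorptive genes beside a gene of chloride secretion. RefSeq promoters on GRCm38.p6 matched 7 of the 10 genes; Car1, Scnn1a and Kcnq1 had none. Each sequence below is the 250 bases before an annotated start, on the plus strand, 5′ to 3′. Capitals mark matches on either strand to 3 motifs. The letters searched were TATAAA for the box that binds TBP, GGGCGGG for the site that binds the Sp family, called here the GC box, and GTTAAT for a core of the HNF1 site. GC boxes that overlap run together.
Slc26a3, chr12:31437969-31438218: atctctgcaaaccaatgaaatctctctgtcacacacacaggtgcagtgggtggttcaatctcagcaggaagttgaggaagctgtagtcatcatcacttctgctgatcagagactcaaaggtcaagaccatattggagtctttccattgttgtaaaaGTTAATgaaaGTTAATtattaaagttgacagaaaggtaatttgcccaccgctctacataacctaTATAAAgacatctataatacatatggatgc
Car4, chr11:84957504-84957753: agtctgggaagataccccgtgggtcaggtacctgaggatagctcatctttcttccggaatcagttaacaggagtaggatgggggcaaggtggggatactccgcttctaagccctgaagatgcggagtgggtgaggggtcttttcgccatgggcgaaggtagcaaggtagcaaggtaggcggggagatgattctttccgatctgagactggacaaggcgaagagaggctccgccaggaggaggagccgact
Aqp8, chr7:123462044-123462293: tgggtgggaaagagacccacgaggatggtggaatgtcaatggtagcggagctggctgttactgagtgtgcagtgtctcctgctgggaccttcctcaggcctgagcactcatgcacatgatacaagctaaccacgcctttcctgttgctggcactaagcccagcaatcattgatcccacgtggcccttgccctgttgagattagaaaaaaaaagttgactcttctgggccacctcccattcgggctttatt
Cftr, chr6:18170437-18170686: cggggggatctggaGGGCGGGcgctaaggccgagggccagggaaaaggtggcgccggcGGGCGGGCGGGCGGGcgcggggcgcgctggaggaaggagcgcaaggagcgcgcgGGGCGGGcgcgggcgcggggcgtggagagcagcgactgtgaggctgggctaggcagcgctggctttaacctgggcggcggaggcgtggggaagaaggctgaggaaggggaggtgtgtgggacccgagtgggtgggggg
The start used for Slc26a3 lies inside the gene span given above. Its sequence held 1 match to the first motif, 30 bases before the start, and 2 HNF1 cores, which occur in 12.4% and 6.43% of the 32851 promoters of the table, and the Cftr sequence held 5 GC boxes, found in 23.4%. Car4 and Aqp8 held none of the 3 motifs. The G and C content was 38.8% before Slc26a3, 52.4% before Aqp8, 56.4% before Car4 and 76.4% before Cftr. The median over all promoters was 52.4%. Kcne3, the other chloride secretion gene with an entry, had 2 starts, whose sequences are not printed. They stood at 46.8% with 0 GC boxes and at 58% with 1, so Cftr does not stand for its set. Letters that match a motif describe the sequence and do not show a binding site.

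Rectum cells were checked against a list of rectum markers, Krt8, Krt18, Krt20, Epcam, Muc13, Vil1, Lgals4, Cdx1, Cdx2 and Phgr1. These 10 genes summed to 13255 UMIs per 1000000 UMIs of the cells (CPM) in normal and 11385 CPM in wounded Rectum cells, with Cdx2 at 0 in the normal cells, against 569 CPM in the normal stratified cells, which are the Anal Canal, Basal and Suprabasal cells. In the wounded library the stratified cells are the Basal, Suprabasal, Regeneration and Wound_Stress cells, and the Hybrid cells are kept apart. Deposited cells had a median of 9724 UMIs in the normal and 10077 in the wounded library. The libraries shared 1 barcode of all and 0 among the deposited cells.

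Among the deposited cells of the normal library, 7 of the 10 genes were found almost entirely in Rectum cells. Car1 had 156 UMIs there, 222 CPM (188 to 259), and 2 UMIs in all 876 stratified cells. Slc26a3 had 93 UMIs against 8, and Car4 had 93 against 9. Aqp8 had 45 UMIs against 2. Of the chloride secretion set, Kcne3 had 110 UMIs in Rectum cells against 7, Kcnq1 had 31 against 1, and Cftr had 40 against 0, a level at least 177-fold higher. The sodium channel set was spread differently. Scnn1a stood at 17.0 CPM (8.81 to 29.8) in Rectum cells and at 15.3 CPM (10.7 to 21.3) in Suprabasal cells, which do not differ beyond counting error. Scnn1b had 2 UMIs in Rectum cells, 2.84 CPM (0.344 to 10.3), and 7.08 CPM (4.81 to 10.0) in the Anal Canal. All 5 UMIs of Scnn1g in Rectum cells lay in 1 cell.

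**Figure D1:**
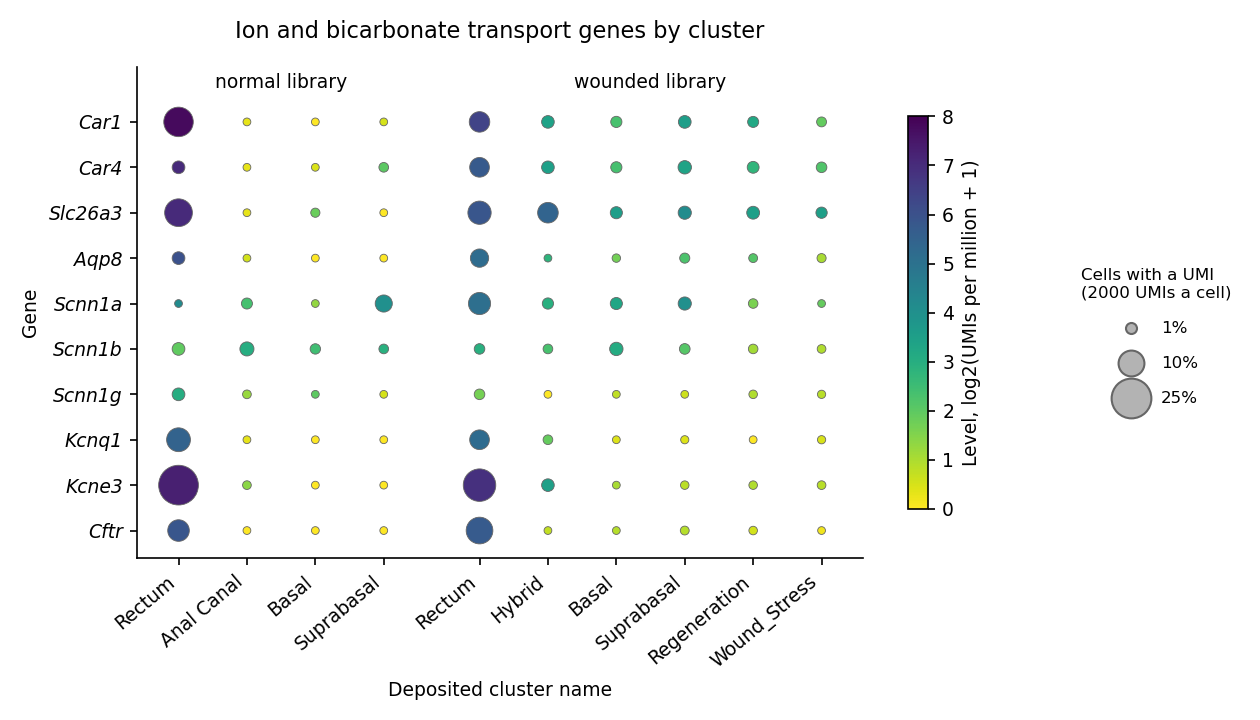
Levels of the 10 genes (rows) in the deposited clusters (columns) of the normal and the wounded library. Colour is log2(CPM + 1), and the size of a dot is the share of cells with a UMI after each cell was thinned to 2000 UMIs. Kcnq1, Kcne3 and Cftr are high in the Rectum columns only, and the wounded stratified clusters show Slc26a3, Car1 and Car4 where the normal ones show nearly none.

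In the wounded library, the chloride secretion set again lay in Rectum cells, with 856 UMIs there, 208 CPM, against 64 UMIs and 1.69 CPM (1.30 to 2.16) in the 3434 stratified cells. The absorptive set was not confined to these cells. It had 939 UMIs in Rectum cells, 228 CPM (214 to 244), and 1084 UMIs, 28.7 CPM (27.0 to 30.5), in the stratified cells, against 2.24 CPM (1.39 to 3.43) in the normal stratified cells. Slc26a3 stood highest in Rectum cells, at 56.7 CPM (49.6 to 64.5), followed by Hybrid cells at 43.2 CPM (33.2 to 55.1), and the intervals of these neighbours overlap. Suprabasal cells followed at 16.7 CPM (14.4 to 19.2), and Basal, Wound_Stress and Regeneration cells stood at 10.6, 10.5 and 10.4 CPM with overlapping intervals. The other absorptive genes did not come near their Rectum level in Hybrid cells, which had a median of 2390 UMIs. There Car1, Car4 and Aqp8 stood at 9.44, 10.1 and 6.07 CPM, against 82.5, 53.5 and 35.8 CPM in Rectum cells. At 2000 UMIs a cell, 126 of 3388 stratified cells held an absorptive UMI, 3.72% (3.11 to 4.41), and 48 of 354 Rectum cells did, 13.6% (10.2 to 17.6).

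Few stratified cells held many of these UMIs. Of the 1084 absorptive UMIs, 601 lay in 60 cells with 5 or more each, and the richest cell had 54. The ratio of Slc26a3 to Car1 UMIs also differed by cluster. It was 0.69 (0.58 to 0.81) in wounded Rectum cells, 1.27 (0.98 to 1.66) in Regeneration, 1.56 (1.24 to 1.97) in Suprabasal, 2.65 (1.62 to 4.49) in Basal, 3.71 (2.27 to 6.33) in Wound_Stress and 4.57 (2.54 to 8.83) in Hybrid cells. In the barcodes of the same library with 25% or more mitochondrial UMIs, which the filter of the study left out, it was 1.96 (1.88 to 2.04). Single cells weigh on these ratios. In Rectum cells 1 cell held 102 of the 339 Car1 UMIs and 10 of Slc26a3, and 1 Regeneration cell held 34 of 106 Car1 UMIs. The intervals do not cover this, and ratios without these cells were not computed. The part of free RNA or of doublets in the stratified values was not tested.

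Between the conditions, 3 of the 4 absorptive genes were called lower in wounded Rectum cells, and 230 of the 387 normal absorptive UMIs lay in 1 cell. The absorptive set stood at 549.6 CPM in normal and 228 CPM in wounded cells, a log2 ratio of -1.27 (-1.44 to -1.09). Without the cell of each library with the most absorptive UMIs, it stood at 227 and 202 CPM, a log2 ratio of -0.17 (-0.42 to 0.08). This alternative was chosen after the data were seen. It left out 1 of 63 normal and 1 of 397 wounded cells, a larger share of the normal cells. In the wounded library 8 cells held 50% of the absorptive UMIs, and a cut of equal share was not made. The chloride secretion set stood at 257 and 208 CPM, a log2 ratio of -0.30 (-0.54 to -0.06) that is under 2-fold. A gene was called where its level differed at least 2-fold with an interval of the log2 ratio without 0, among genes with at least 20 UMIs over both groups. Of the 9 members compared, 3 were lower and 0 higher. Over all 10197 genes compared, 5.32% were called lower and 7.08% higher, with a median log2 ratio of 0.02.

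Car1 had 156 UMIs, 222 CPM, in the normal and 339 UMIs, 82.5 CPM, in the wounded Rectum cells. Its log2 ratio of wounded over normal was -1.43 (-1.70 to -1.14). Car4 went from 132 to 53.5 CPM, a log2 ratio of -1.30 (-1.66 to -0.94), and Slc26a3 from 132 to 56.7 CPM, a log2 ratio of -1.22 (-1.57 to -0.86). Aqp8 stood at 63.9 and 35.8 CPM, with a log2 ratio of -0.84 (-1.33 to -0.32) that is under 2-fold. The 4 ratios have overlapping intervals and cannot be ordered.

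Each gene of the chloride secretion set stayed within 2-fold. Kcne3 stood at 156 CPM in normal and 118 CPM in wounded cells, a log2 ratio of -0.40 (-0.70 to -0.09). Kcnq1 stood at 44.0 and 37.0 CPM, a log2 ratio of -0.25 (-0.82 to 0.36), and Cftr at 56.8 and 52.8 CPM, a log2 ratio of -0.11 (-0.60 to 0.42). The intervals of all 3 genes lie inside 2-fold in both directions. Scnn1a had 12 and 137 UMIs, 17.0 CPM in normal and 33.3 CPM in wounded cells, with a log2 ratio of 0.97 (0.12 to 1.96) and was not called. Scnn1b had 2 and 28 UMIs, a log2 ratio of 1.26 (-0.73 to 4.38). Scnn1g had 5 and 9 UMIs and was not compared.

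The absorptive values of the normal library rested on very few cells, and counting intervals do not cover this. All 93 Car4 UMIs of the normal Rectum cells, 44 of the 45 Aqp8 UMIs, 69 of the 156 Car1 UMIs and 24 of the 93 Slc26a3 UMIs lay in 1 cell of 13561 UMIs and 19.6% mitochondrial UMIs. That cell held 230 of the 387 absorptive UMIs and no UMI of the chloride secretion set. In the wounded library the richest cell held 114 of 939 absorptive UMIs, 102 of them Car1, beside 100 UMIs of the stratified keratins Krt5, Krt14, Krt15 and Krt17. Without the cell with most of its UMIs in each library, Car1 had a log2 ratio of -1.12 (-1.48 to -0.75) and Slc26a3 one of -0.95 (-1.35 to -0.53), which is under 2-fold. Car4 turned to the other direction, with 0 UMIs in the remaining normal cells and a log2 ratio of at least 3.43 against a floor of 3 UMIs over the group. Aqp8 then had 1 normal UMI and a log2 ratio of 4.41 (1.91 to 9.73). Of the 3 genes called lower, Car1 stayed past 2-fold without its 1 richest cell in each library, and Slc26a3 and Car4 did not. Leaving out 1 of 63 normal and 1 of 397 wounded cells cuts a larger share of the normal cells. A cut of equal share was not made. The 3 richest cells held 83.3% of the normal and 51.3% of the wounded Car1 UMIs, and a ratio without all 3 was not computed. Cells with any UMI were 10 of 63 and 47 of 397 for Car1, 9 and 62 for Slc26a3, 1 and 36 for Car4, and 2 and 30 for Aqp8. The UMIs of Kcnq1, Kcne3 and Cftr were spread over 42 normal and 188 wounded cells, with at most 13 and 18 in any cell.

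**Figure D2:**
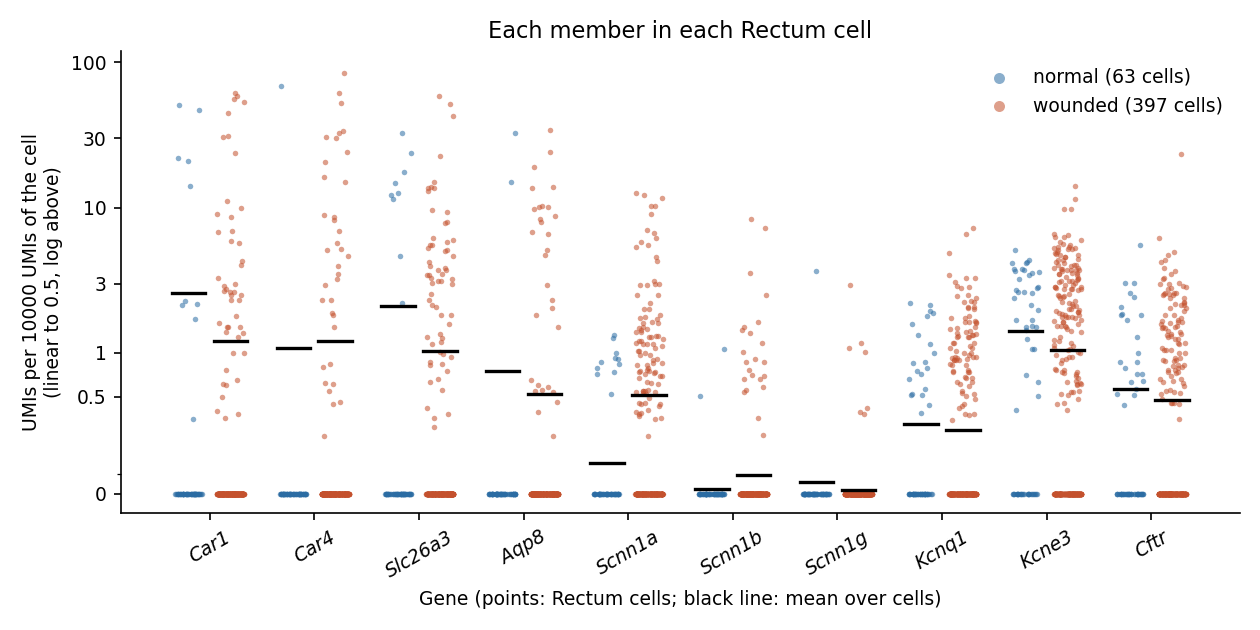
UMIs per 10000 UMIs of the cell (linear to 0.5, logarithmic above) for each gene in every Rectum cell, normal in blue and wounded in red, with the mean over cells as a black line. The normal Car4 and Aqp8 means come from 1 and 2 cells, while Kcnq1, Kcne3 and Cftr are spread over many cells of both libraries.

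**Figure D3:**
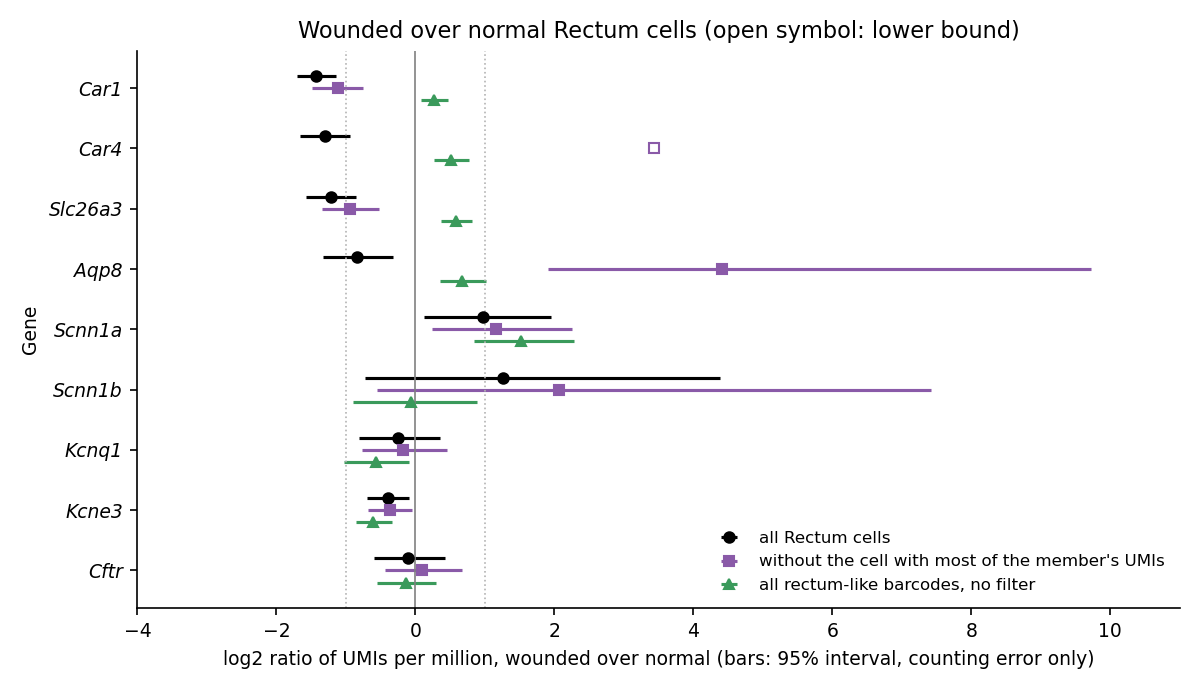
log2 ratio of wounded over normal for the 9 compared genes, with 95% intervals of counting error, over all Rectum cells (black), without the cell with most of the gene's UMIs in each library (purple, the open square is a lower bound), and over all barcodes with rectum markers and no filter (green). Car1, Car4, Slc26a3 and Aqp8 change side with the set of cells, and Kcnq1, Kcne3 and Cftr stay within 2-fold of the normal level in the black and purple values.

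Cells rich in the absorptive set held almost no UMIs of the chloride secretion set, while many cells with fewer absorptive UMIs held some at full depth. After thinning to 2000 UMIs, 9 of 60 normal cells held an absorptive UMI, 15.0% (7.10 to 26.6), 21 held a UMI of Kcnq1, Kcne3 or Cftr, and 0 held both. In the normal stratified cells, as background, 0.240% and 0.120% held a UMI of these sets. In the wounded library 48 of 354 cells held an absorptive UMI, 97 held a UMI of the other set, and 7 held both, with 3.72% and 0.354% in the stratified cells. The median depth was 10885 UMIs in Rectum and 9684.5 in stratified cells of the normal library, and 9991 and 10609.5 in the wounded library. At full depth, with a limit chosen after the values were seen, 9 normal cells had 10 or more absorptive UMIs per 10000, and none of their 60035 UMIs came from Kcnq1, Kcne3 or Cftr. In the 26 wounded cells past the same limit, 1 of 180399 UMIs did. Cells with absorptive UMIs under the limit did not differ in this way. Of them, 4 of 5 normal and 41 of 71 wounded cells held a chloride secretion UMI, at 302 and 214 CPM of that set, and 38 of 49 normal and 146 of 300 wounded cells with no absorptive UMI did, at 279 and 219 CPM. Cells past the limit were 14.3% (6.75 to 25.4) of the normal and 6.55% (4.32 to 9.45) of the wounded Rectum cells, and these intervals overlap. At 2000 UMIs, 30 of the 60 normal and 216 of the 354 wounded cells held neither set. The wounded cells past the limit were shallower, with a median of 3980 UMIs and 21.4% mitochondrial UMIs, against 10488.5 UMIs and 11.5% in the cells without an absorptive UMI. In the normal library the medians were 7614 and 11599 UMIs, and 10.7% and 8.83% mitochondrial UMIs.

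**Figure D4:**
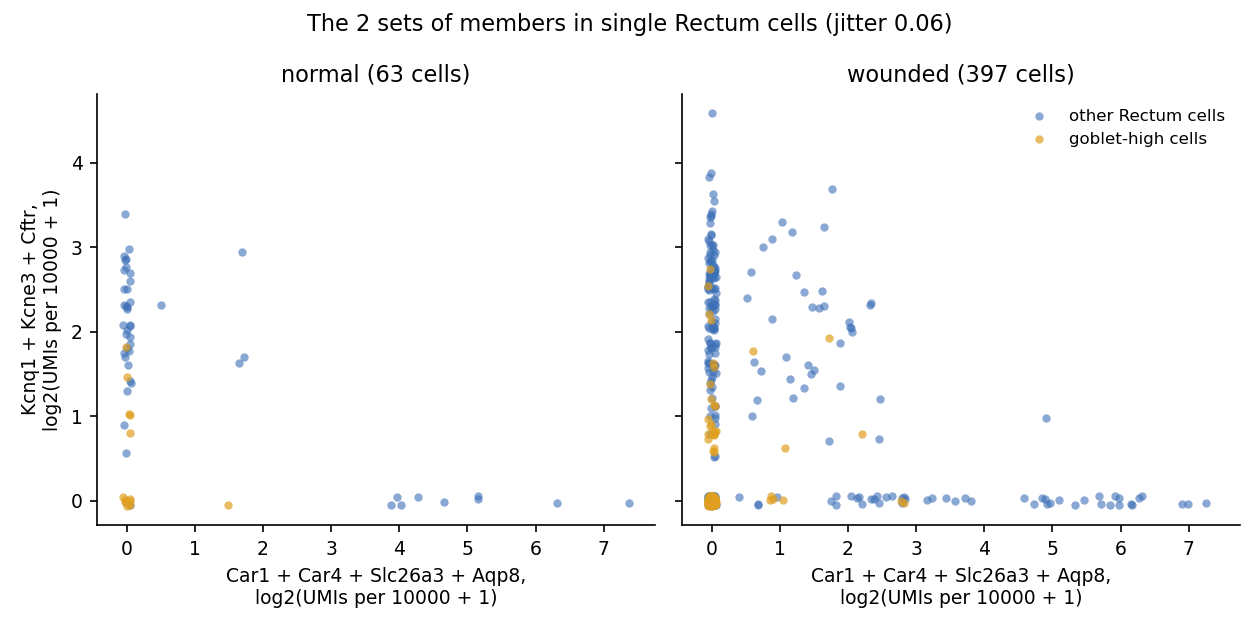
Summed UMIs per 10000 of Car1, Car4, Slc26a3 and Aqp8 (horizontal axis) and of Kcnq1, Kcne3 and Cftr (vertical axis), both as log2(value + 1), for each Rectum cell. Goblet-high cells, with 1% or more of their UMIs from goblet genes, are orange and the others blue. Cells far to the right lie at 0 on the vertical axis in the normal panel and, with 1 exception, in the wounded panel.

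Some other genes differed between these cells. Krt20, a keratin of surface cells, stood at 820.1 CPM in the 8 normal cells with only absorptive UMIs, after cells rich in goblet genes were set apart, and at 59.5 CPM in the 19 cells with only chloride secretion UMIs. The wounded values were 387 CPM in 38 and 12.4 CPM in 83 cells. Over all wounded Rectum cells, 30.5% of the Krt20 UMIs lay in 1 cell. A sum of 9 genes of the cell cycle ran the other way, at 74.6 and 2095 CPM in the normal and 1094 and 2173 CPM in the wounded cells. Fxyd4, a small subunit that regulates the sodium pump, stood at 1759.6 and 45.7 CPM in the normal and 487 and 15.6 CPM in the wounded cells. Guca2a, the gene of guanylin, stood at 5159 and 192 CPM in the normal and 214 and 61.2 CPM in the wounded cells. Slc5a8, a carrier of short-chain fatty acids, was lower in the cells with only absorptive UMIs, at 44.7 and 256 CPM in the normal cells. In the wounded cells it stood at 66.7 and 85.0 CPM, with overlapping intervals. Car2 differed little, at 954 and 1134 CPM in the normal and 470.4 and 425 CPM in the wounded cells, and Slc4a4, a sodium and bicarbonate cotransporter, stood at 253 and 36.6 CPM in the normal but 66.7 and 77.8 CPM in the wounded cells. The wounded cells with only absorptive UMIs also held 1378 CPM of stratified keratins, against 465 CPM, and a median of 21.0% mitochondrial UMIs, against 12.6%. The part of either in these values was not tested.

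The genes most alike to each member were taken over the 397 wounded Rectum cells. They were the 3 genes with the highest Pearson r for each member, on log2(UMIs per 10000 + 1), among the 4814 genes with at least 100 UMIs. The r describes cells that share 1 library, depth and the zeros of sparse counts. Ly6g, best known as a surface antigen of neutrophils, came first for Car1 (r = 0.64), Car4 (r = 0.61) and Aqp8 (r = 0.62). In the normal cells its r was 0.91 with Car1, 0.52 with Car4 and 0.39 with Aqp8. Of the 6 leukocyte genes, Ptprc, Cd3e, Lyz2, Cd79a and Tyrobp were at 0 and Cd74 had 10 UMIs in the normal Rectum cells. These cells held 102 UMIs of Ly6g. The wounded Rectum cells held 306 UMIs of Ly6g, 133 of Cd74, 3 of Ptprc, 4 of Cd79a, 2 each of Tyrobp and Lyz2, and 0 of Cd3e. Ly6g belongs to a family of near-identical genes, so its reads are uncertain. Tgm3, a transglutaminase, came first for Slc26a3 (r = 0.57, and 0.73 in the normal cells). S100g was among the 3 genes for Car4 (r = 0.61, and -0.08 in the normal cells) and for Aqp8 (r = 0.56, and -0.12). For Kcne3 the first gene was Csrp2 (r = 0.56, and 0.58 in the normal cells), for Kcnq1 it was Trf, the gene of transferrin (r = 0.44, and 0.19), and for Cftr it was Fut9, a fucosyltransferase (r = 0.46, and 0.04). Among the members, r between absorptive genes was 0.45 to 0.60 in the wounded cells. In the normal cells it was 0.25 to 0.78, with all Car4 UMIs in 1 cell. Kcnq1, Kcne3 and Cftr had r of 0.30 to 0.34 with each other in the wounded and 0.08 to 0.37 in the normal cells.

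Scnn1b, and to a lesser degree Scnn1a, stood higher in wounded goblet-high cells than in the other Rectum cells. Goblet-high cells, with 1% or more of their UMIs from 8 goblet genes, were 15 of 63 normal cells, 23.8% (13.98 to 36.2), and 125 of 397 wounded cells, 31.5% (26.9 to 36.3), and 36 wounded cells lay within 2-fold of that limit. In the wounded goblet-high cells Scnn1a stood at 42.7 CPM (32.9 to 54.6) and Scnn1b at 14.7 CPM (9.21 to 22.2), against 27.9 CPM (21.9 to 35.1) and 2.30 CPM (0.843 to 4.998) in the other Rectum cells. The log2 ratio of goblet-high over other cells was 0.61 (0.11 to 1.12) for Scnn1a and 2.68 (1.33 to 4.27) for Scnn1b. In the normal goblet-high cells Scnn1a had 6 UMIs, 39.1 CPM (14.3 to 85.0), and also 6 in the other cells, 10.9 CPM (3.999 to 23.7), a log2 ratio of 1.84 (-0.06 to 3.75). Scnn1g had 0 UMIs in the normal and 5 in the wounded goblet-high cells, where its log2 ratio was 1.13 (-1.09 to 3.46). The members of the other sets were low in these cells. In the wounded library the log2 ratio of goblet-high over other cells was -5.26 (-6.89 to -4.02) for Car1, -4.21 (-5.54 to -3.14) for Slc26a3, -2.80 (-3.33 to -2.32) for Kcne3 and -2.85 (-3.68 to -2.11) for Cftr. The level of Scnn1a was higher still in wounded cells rich in absorptive UMIs, but not in normal ones. In the 26 wounded cells past the limit on absorptive UMIs it had 23 UMIs in 13 cells, 127 CPM, at a median of 21.4% mitochondrial UMIs, and in the 83 cells with only chloride secretion UMIs it had 8.29 CPM (3.58 to 16.3). The 9 normal cells past the limit held 1 UMI of Scnn1a, 16.7 CPM, against 17.1 CPM in the normal cells with no absorptive UMI. At 2000 UMIs a cell, 3.33% (0.406 to 11.5) of normal and 8.47% (5.79 to 11.9) of wounded Rectum cells held a UMI of any subunit, against 2.75% and 1.83% of the stratified cells, so the normal share lay at the level of the stratified cells. The leading genes for Scnn1a were Sprr2a3 (r = 0.39), of a family of near-identical genes, 2200002D01Rik (r = 0.36) and Ahnak2 (r = 0.34), and the normal r were 0.01, -0.19 and 0.18.

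Most absorptive UMIs lay outside the deposited cells in both libraries, by a small margin in the normal and a wide one in the wounded library. The study kept barcodes with 200 to 5000 detected genes and under 25% mitochondrial UMIs. Of all Slc26a3 UMIs of the wounded library, 2.88% were in Rectum cells and 89.2% in the 11900 barcodes with 25% or more mitochondrial UMIs. For Car1 the shares were 7.75% and 84.1%, for Kcne3 38.7% and 33.8%, and for Kcnq1 41.9% and 26.4%. In the normal library, Rectum cells held 52.5% of the Car1, 36.0% of the Slc26a3 and 67.1% of the Kcne3 UMIs. The 1003 normal barcodes past the same limit held 39.4% of the Car1, 41.3% of the Car4, 59.7% of the Slc26a3, 51% of the Aqp8 and 8.54% of the Kcne3 UMIs. The share of all UMIs of a library in these barcodes is not given here, so these shares can be set beside those of other members only.

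Barcodes past the mitochondrial limit were called rectum-like where the 10 rectum genes made up 0.5% or more of the UMIs, as they did in 98.4% of the normal and 89.9% of the wounded Rectum cells and in 0.685% and 0.827% of the other deposited cells. This limit was chosen after the values were seen. There were 187 such barcodes in the normal and 1773 in the wounded library, with medians of 1125 and 2177 UMIs. Their levels are given as non-mitochondrial CPM, UMIs per 1000000 UMIs that are not mitochondrial. Slc26a3 stood at 701 non-mitochondrial CPM (563 to 863) in the normal and 793 (760 to 828) in the wounded rectum-like barcodes, against 144 (116 to 177) and 64.3 (56.3 to 73.1) in the Rectum cells on the same scale. Car1 stood at 677 (542 to 837) and 787 (754 to 822), Car4 at 409.6 (306 to 537) and 583 (554 to 613), and Aqp8 at 284 (199 to 393) and 361 (338 to 385). The absorptive members were not used to choose these barcodes. Krt20, 1 of the genes used, stood at 347 and 689, against 107 and 84.2 in the Rectum cells. Scnn1a stood at 39.4 and 107, with a log2 ratio of wounded over normal of 1.44 (0.20 to 3.07), and Scnn1b and Scnn1g ran the other way, at -1.67 (-2.60 to -0.61) and -1.96 (-3.15 to -0.55). The chloride secretion set was lower in the wounded barcodes than in the Rectum cells of that library, with log2 ratios of -2.31 (-2.69 to -1.94) for Kcne3, -2.19 (-2.88 to -1.56) for Kcnq1 and -1.48 (-1.93 to -1.05) for Cftr.

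Barcodes left out for too many detected genes stood at the other end. In the 43 wounded rectum-like barcodes with 5000 or more genes, with a median of 31374 UMIs, Kcnq1 stood at 71.0 (57.6 to 86.6), Kcne3 at 204 (181 to 230) and Cftr at 116 (98.3 to 135) non-mitochondrial CPM, all above their Rectum level, and Car1 at 6.59 (3.01 to 12.5). Only 4 such barcodes were in the normal library, with 51 UMIs of the chloride secretion set and 0 of the absorptive set. Within the deposited cells the absorptive level moved with the mitochondrial share. In Rectum cells under 10% mitochondrial UMIs the absorptive genes had 45 Car1, 35 Slc26a3, 1 Aqp8 and 0 Car4 UMIs in 36 normal cells and 51, 45, 44 and 41 in 151 wounded cells. From 10% to 25%, Car1 stood at 629 non-mitochondrial CPM in 27 normal and 165 in 246 wounded cells. The richest cell of each library lay in this class, and without it Car1 stood at 254 (183 to 343) and 107 (92.6 to 124), against 96.0 (69.99 to 128) and 27.1 (20.2 to 35.7) under 10%. Car4 and Aqp8 then had 0 UMIs in the normal class.

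**Figure D5:**
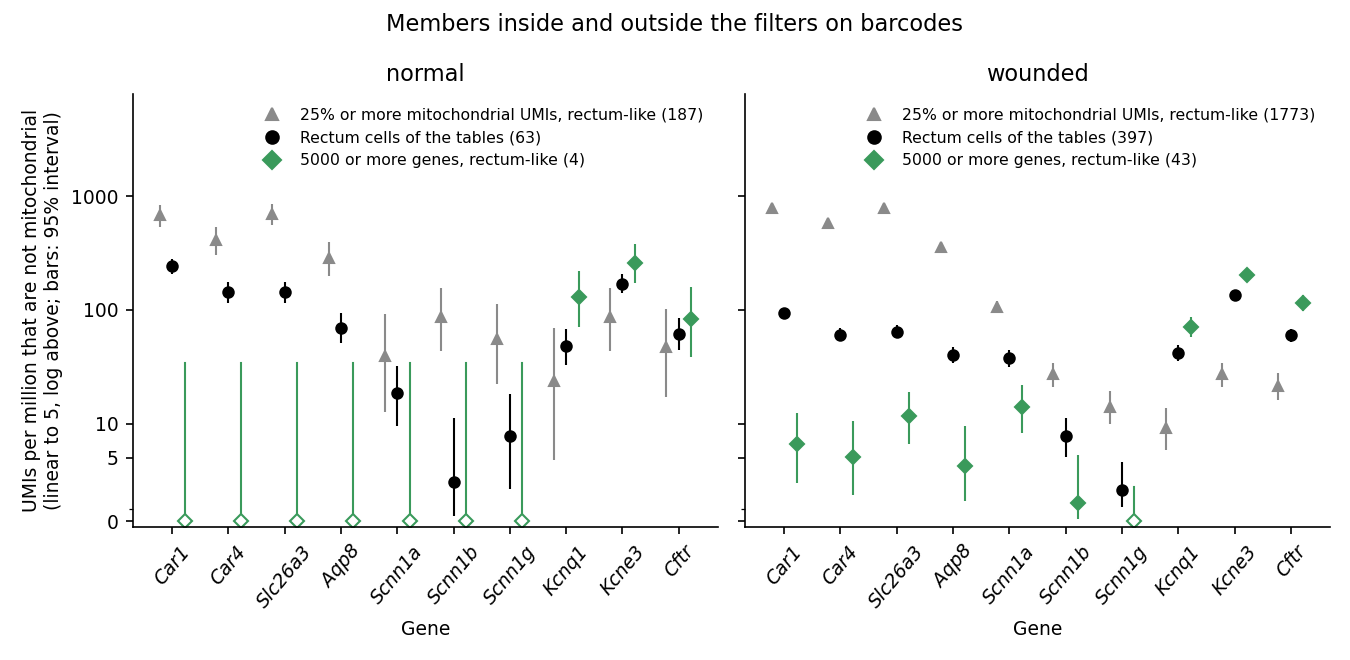
Non-mitochondrial CPM (linear to 5, logarithmic above, bars are 95% intervals of counting error) for each gene in rectum-like barcodes with 25% or more mitochondrial UMIs (grey triangles), deposited Rectum cells (black circles) and rectum-like barcodes with 5000 or more genes (green diamonds, open at 0 UMIs). In the wounded panel the absorptive genes fall from triangle to diamond, and Kcnq1, Kcne3 and Cftr rise.

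With all rectum-like barcodes and no filter, the absorptive genes were higher in the wounded library. Car1 had 242 and 2488 UMIs and a log2 ratio of 0.27 (0.08 to 0.47), Car4 one of 0.52 (0.27 to 0.77), Slc26a3 one of 0.58 (0.37 to 0.81) and Aqp8 one of 0.67 (0.35 to 1.02). Chosen by the same markers but within the filters, 68 normal and 391 wounded barcodes gave log2 ratios of -1.04 (-1.31 to -0.76) for Car1, -1.11 (-1.46 to -0.75) for Car4, -1.14 (-1.49 to -0.77) for Slc26a3 and -0.72 (-1.21 to -0.20) for Aqp8. Past the mitochondrial limit alone, the log2 ratio was 0.22 (-0.09 to 0.55) for Car1, 0.51 (0.11 to 0.94) for Car4, 0.18 (-0.13 to 0.50) for Slc26a3 and 0.35 (-0.13 to 0.87) for Aqp8. Within the filters lay 68 of 259 normal and 391 of 2207 wounded rectum-like barcodes, so the ratios without a filter also depend on this mix. With the marker rule held fixed, the direction of these 4 genes changed with the filter, and that of Car4 and Aqp8 also changed without their richest cell. Scnn1a kept its direction, with 18 and 439 UMIs and a log2 ratio of 1.52 (0.84 to 2.29), and Kcne3 kept its own, at -0.61 (-0.86 to -0.34).

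Of the list of 36 other colonic transporters and channels, 28 were compared, 5 were higher and 4 lower in wounded Rectum cells, with a median log2 ratio of -0.18. Lower were Slc5a8, a sodium-coupled carrier of short-chain fatty acids, from 122 to 50.1 CPM with a log2 ratio of -1.29 (-1.65 to -0.90), Slc16a1, a monocarboxylate carrier, at -1.18 (-1.60 to -0.75), and Car2, a cytosolic carbonic anhydrase, at -1.06 (-1.20 to -0.93). Higher were Clca4a at 2.36 (0.97 to 4.26), with all 4 normal UMIs and 31.7% of the wounded UMIs in 1 cell each, Car12 at 2.04 (0.43 to 4.35), Kcnma1, a potassium channel, at 1.44 (0.15 to 3.099), and Slc4a7, a sodium and bicarbonate cotransporter, at 1.18 (0.64 to 1.78). Slc12a2, the basolateral carrier that loads chloride for secretion, rose from 231 to 509 CPM, a log2 ratio of 1.14 (0.91 to 1.37), and is named here because its value was seen. Goblet-high cells of at least 2000 UMIs carried 559.9 CPM of it in the normal and 867 CPM in the wounded library. It was also higher in the wounded library outside them. It stood at 151 and 392 CPM in cells with only chloride secretion UMIs and at 168 and 297 CPM in cells with neither set. In cells with only absorptive UMIs it stood at 0 and 60.1 CPM.

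Of 21 regulators of the sodium channel and of chloride secretion, 20 were compared, 3 were higher and 3 lower, with a median log2 ratio of -0.05. Nr3c2, the mineralocorticoid receptor, rose from 18.5 to 69.1 CPM, a log2 ratio of 1.90 (1.11 to 2.83). Hsd11b2, the enzyme that keeps glucocorticoids off that receptor, rose from 209 to 468 CPM, a log2 ratio of 1.16 (0.92 to 1.42), and Wnk1, a kinase that controls salt transport, had a log2 ratio of 1.22 (0.60 to 1.90). Hsd11b2 stood at 781 CPM in the normal and 1208 CPM in the wounded goblet-high cells of that depth. Lower were Fxyd4, with a log2 ratio of -1.55 (-1.85 to -1.24), Vipr1, a receptor for vasoactive intestinal peptide, at -1.10 (-1.54 to -0.64) and Guca2a, the gene of guanylin, at -1.09 (-1.21 to -0.97). A single cell held 18.5% of the normal and another 19.3% of the wounded Fxyd4 UMIs. For Guca2a, 19.6% of the normal UMIs lay in 1 cell.

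Of 13 surface colonocyte genes compared, 3 were lower and 1 higher, with a median log2 ratio of -0.44. Lower were Cyp2c55 at -1.89 (-2.53 to -1.24), with 40% of its normal UMIs in 1 cell, Muc3, a membrane mucin, at -1.53 (-1.65 to -1.40), and Fabp2, a fatty acid binding protein, at -1.17 (-1.94 to -0.34). Higher was Mxd1 at 1.00 (0.51 to 1.55), with 34.3% of its normal UMIs in 1 cell. Of 12 crypt and cycling genes, Lgr5, a stem cell marker, was higher on 3 and 80 UMIs and Hmgb2, a chromatin protein of cycling cells, was lower, with a median of 0.12. Other lists moved beside the members. Their part in the members' values was not tested beyond leaving out goblet-high cells or cells with stratified keratins. Stratified markers summed to 193 CPM in normal and 658 CPM in wounded Rectum cells, with 5 of 6 higher. Fibroblast markers summed to 1.42 and 242 CPM, with Col1a1, Col1a2, Col3a1 and Lum at 0 in the normal cells, although the sort set fibroblasts aside. Stress genes had 4 of 7 higher, and goblet genes 4 of 8, at 8366 and 17033 CPM in sum. Without goblet-high cells, 48 normal and 272 wounded Rectum cells remained. In them Car1 stood at 281.5 and 127.8 CPM, Car4 at 168.9 and 81.1 CPM and Aqp8 at 81.7 and 55.9 CPM. Slc26a3 stood at 168.9 and 86.5 CPM there, which is under 2-fold. Of the other lists, none of the 9 rectum genes compared was called, enteroendocrine genes summed to 92.3 and 40.1 CPM, leukocyte genes to 14.2 and 35.0 CPM, endothelial genes to 9.94 and 8.03 CPM and tuft genes to 0 and 8.03 CPM. Without the 10 wounded cells with 0.5% or more of their UMIs from Krt5, Krt14, Krt15 and Krt17, Car1 had a log2 ratio of -1.91 and stayed called. This setting cut the wounded side only, since all 63 normal cells were kept. It left out the cell with 102 of the 339 wounded Car1 UMIs and kept the normal cell with 69 of 156. Without the richest Car1 cell of both libraries the log2 ratio was -1.12.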

How the data were processed

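Droplet 3′ single-cell RNA-seq was made from sorted anorectal cells, 1 library per condition. Per the labels and methods, reads were aligned to mm10 with Cell Ranger 3.1.0 (the file header of the wounded library names 4.0.0), and Seurat 3.2.2 was used to keep cells with 200 to 5000 genes and under 25% mitochondrial UMIs and to remove contaminating types. The authors deposited a matrix of UMI counts for every library, used for all levels, and a table of natural log values, of 1 plus a whole number, whose second line names each cell's cluster.

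Counts were summed over the cells of each cluster and given per 1000000 UMIs (CPM), or per 1000000 that are not mitochondrial. The 3′ tags do not scale with transcript length, so levels are not ranked between genes. There was no test, since each condition had 1 library. Intervals are exact at 95% and cover counting error only, not the clumping of UMIs in cells. A group at 0 was set to 3 UMIs as a floor. For shares, cells were thinned to 2000 UMIs, leaving out 3 normal and 43 wounded Rectum cells. Doublets had been gated by scatter at the sort, and no caller was run here; cells with stratified keratins and the 5% deepest cells were left out as alternatives. The members and lists were chosen with earlier results of these data known. Beside the members, genes named from a list were those called with at least 50 UMIs, up to 4 in each direction, and for each member with at least 100 wounded UMIs the 3 genes most alike. Settings tried were other scalings, filters, thresholds and sets of cells. Some were added after the data were seen. They were those without the cell richest in absorptive UMIs, with all rectum-like barcodes and with those within the filters. Also added then were those with the level of the stratified cells taken off and with keratins to choose barcodes. The calls were also run on simulated counts drawn independently for each gene. These held no clumping of UMIs in cells, so that run cannot show how the calls behave for clumped genes. Python 3.11.15, numpy 2.4.6, scipy 1.17.1, pandas 2.3.3 and matplotlib 3.10.9 were used. Sequences came from RefSeq on GRCm38.p6 and gene spans from GENCODE on GRCm38.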

Additional observations from a re-analysis of the deposited data

Results flagged for a closer look

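Signal appeared in barcodes that the comparison between Rectum cells does not use. In the 1773 wounded barcodes with rectum markers and 25% or more mitochondrial UMIs, the level per 1000000 UMIs that are not mitochondrial was 787 for Car1, 583 for Car4, 793 for Slc26a3 and 361 for Aqp8. The same class of barcodes in the normal library stood at 677, 409.6, 701 and 284. The log2 ratio of wounded over normal in these barcodes was 0.22 (-0.09 to 0.55) for Car1, 0.51 (0.11 to 0.94) for Car4, 0.18 (-0.13 to 0.50) for Slc26a3 and 0.35 (-0.13 to 0.87) for Aqp8, so the interval of Car4 alone lay above 0. The deposited Rectum cells of the wounded library stood at 93.5, 60.7, 64.3 and 40.6 on the same scale.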

How the results depend on the processing

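Of 282 values recomputed under an alternative, 215 stayed the same, 60 moved, and 7 were ratios of called genes that turned to the other direction. Ratios, levels and shares were held against their interval. Counts of called genes were held against 1.5-fold of the reported count, and the transporter median against its sign and the spread of that list. Under this rule a fall from 3 members called lower to 2 counts as the same, so the tally does not show whether each call was kept. Counting genes that were not called, 16 ratios of members changed sign, 5 of Car4, 4 of Aqp8, 2 of Cftr, 2 of Scnn1b and 1 each of Car1, Slc26a3 and Kcne3. No paired analysis was possible because each condition was 1 library. Over all rectum-like barcodes with no filter, the log2 ratio of wounded over normal turned to 0.27 for Car1, 0.52 for Car4, 0.58 for Slc26a3 and 0.67 for Aqp8. Car4 also turned to 0.16 with the mean of per-cell CPM, and to at least 1.75 in cells under 10% mitochondrial UMIs, 3.62 without the cell with the most absorptive UMIs and 3.43 without its own top cell, where no normal UMI of Car4 remained. Aqp8 turned to 3.44, 4.62 and 4.41 in these 3 settings, on 1 normal UMI. The number of members called higher, 0 as reported, was 1 with the mean of per-cell CPM, without goblet-high cells and at 1.5-fold, 2 in cells under 10% mitochondrial UMIs and 3 without the cell with the most absorptive UMIs, where 1 member was called lower. Over all genes, thinning to 2000 UMIs called 209 higher and 266 lower, and 1.5-fold called 1127 and 1097. The median log2 ratio of the transporter list was 0.093 with the mean of per-cell CPM. With keratins to choose the barcodes past the mitochondrial limit, 1 of 10 normal and 5 of 10 wounded member levels moved. Where no sentence names a reason, the cause was not tested. In the normal Rectum cells, 63 cells and 2 to 156 UMIs per member limit every ratio.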
